A study of Potamopyrgus antipodarum with 6 samples.

Results

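The regions described here are the 100 bp windows of the *Potamopyrgus antipodarum* transcriptome in which methylated DNA immunoprecipitation (MeDIP) recovered at least 2 times as many reads from snails of Lake 2 (Lake Washington) as from snails of River 1 (the Snake River, main channel). They were selected on the read counts of the same 6 pools that are described below. Counts were scaled to CPM, the usual scale in which the counts of each pool sum to 1000000. A window was eligible when its counts summed to at least 60 over the 6 pools and averaged less than 150 per pool, and it was kept when every Lake 2 pool had a higher CPM than every River 1 pool and the mean of Lake 2 was at least 2 times that of River 1. Of 739509 windows, 221751 held a read, 66195 were eligible and 1579 were kept. The kept windows were 2.39% of the eligible ones. Joined where they lay at most 1000 bp apart on a contig, they formed 1190 runs on 1190 contigs. Because the rule used all 6 pools, the site difference in these windows is a description. Calls of a test across all windows are counted further below only to place the limits of the rule, not as support for the difference.

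*P. antipodarum* is a freshwater snail whose populations in the western United States are parthenogenetic females. Foot tissue DNA of wild-caught snails was compared between a lake without current and a fast-flowing river. The labels give 10 snails per pool, 3 pools for Lake 2 (numbered 4, 5 and 6) and 3 pools for River 1 (numbered 7, 8 and 9). Snails were kept in a laboratory chamber for several days before dissection, and no treatment was given. The pools of a site are replicates of different snails of that site. Each habitat is represented here by a single site, so that habitat and site cannot be told apart. Per the methods, lake and river libraries shared a sequencing lane. In pooled tissue, methylation in fewer cells and less methylation per cell cannot be told apart.

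DNA methylation places a methyl group on cytosine, mostly where a guanine follows. In molluscs it is sparse along the genome and found mainly within the bodies of genes, particularly of genes that are expressed in most tissues. In MeDIP an antibody against 5-methylcytidine pulls down sonicated single-stranded DNA, so the reads over a window rise with its methylation but give no percentage of methylated cytosines. The reads were aligned to a transcriptome whose contigs were joined end to end. Every window therefore lies in transcribed sequence, and positions below are base positions in that joined sequence. Chromosomes, introns, promoters and untranslated regions are not annotated in it, and no sequence of a window was available to print.

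The window counts summed to 3317802 to 4994212 per pool, with pool 4 the deepest and pool 8 the shallowest. A single read was worth 0.200 to 0.301 CPM. Windows that averaged 10 to 25 counts took 15.6%, 13.8% and 13.5% of the counts of Lake 2 pools 4, 5 and 6, against 13.4%, 10.9% and 13.3% of those of River 1 pools 7, 8 and 9. Pool 4 was thus highest and pool 8 lowest in the share of reads over weakly covered windows, which is the class that most of the selected windows belong to. Windows that averaged 150 counts or more took a smaller share the deeper the pool was. From the deepest pool to the shallowest (4, 9, 5, 7, 6 and 8) this share was 26.5%, 28.7%, 29.7%, 30.3%, 30.7% and 33.2%. The share of reads over weakly covered windows therefore cannot be told apart from depth. The part of either in the results below was not tested beyond a scaling within count classes, which is given with them.

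In the selected windows the mean MeDIP level was 6.46, 5.09 and 5.87 CPM in Lake 2 pools 4, 5 and 6, and 3.13, 1.97 and 2.57 CPM in River 1 pools 7, 8 and 9. The site means were 5.81 ± 0.69 CPM in Lake 2 and 2.56 ± 0.58 CPM in River 1 (SD, n = 3 each), a 2.27-fold difference. Over all eligible windows they were 9.21 ± 0.155 and 8.94 ± 0.169 CPM. The windows thus lay below the average of the eligible windows at both sites, and further below it in River 1. Summed over the windows, the level was 9168 ± 1087 CPM in Lake 2 and 4036 ± 916 CPM in River 1.

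**Figure D1:**
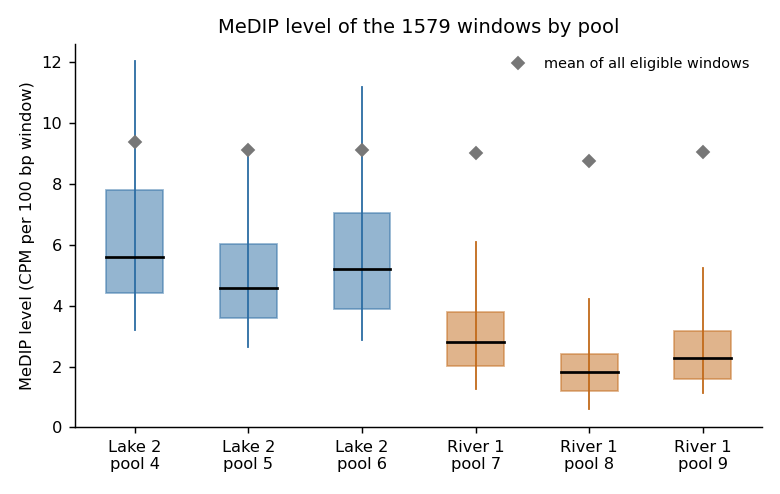
MeDIP level (CPM per 100 bp window) of the 1579 selected windows in each of the 6 pools. Boxes give the quartiles with the median as a black line, whiskers the 5th and 95th percentiles, and grey diamonds the mean of all 66195 eligible windows; the medians were 5.61, 4.58 and 5.21 CPM in Lake 2 and 2.79, 1.81 and 2.27 CPM in River 1, while the diamonds hardly differ.

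The pools of a site were not alike in these windows. Pool 4 had the highest level of the Lake 2 pools in 57.8% of the windows and pool 5 the lowest in 61.6%. Pool 7 had the highest level of the River 1 pools in 61.1% and pool 8 the lowest in 65.4%. Among all eligible windows pool 4 was highest in its site in 43.0%, pool 5 lowest in 34.7%, pool 7 highest in 38.2% and pool 8 lowest in 46.8%. The median coefficient of variation among pools was 0.19 in Lake 2 and 0.34 in River 1, against 0.15 and 0.19 over all eligible windows. The eligible windows had more reads (a median of 22.8 per pool against 15.5), so the sets are not matched in counting error. In the windows of the same rule with River 1 higher, the order was reversed, with 0.30 in Lake 2 and 0.24 in River 1. Behind the values of the selected windows stood a median of 28, 19 and 20 reads per window in pools 4, 5 and 6, and of 11, 6 and 10 reads in pools 7, 8 and 9. In 9 windows pool 8 had no read, which at its depth allows up to 0.904 CPM (3 counts, counting error only).

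Many of the windows lay near the limits of the rule. The ratio of the mean CPM, Lake 2 over River 1, had a median of 2.22 and reached 6.04. It was 2 to 2.1 in 436 windows (27.6%), 3 or more in 69 and 4 or more in 5. Just inside the limit, the window at 385201 to 385300 had 40, 17 and 19 reads in Lake 2 and 16, 5 and 13 reads in River 1 (8.01, 4.10 and 4.95 CPM against 4.06, 1.51 and 2.96 CPM), a ratio of 2.0002. The next, at 410101 to 410200 and 56517601 to 56517700, had ratios of 2.0015 each. Just outside it, the window at 12802001 to 12802100 had 52, 32 and 33 reads in Lake 2 and 13, 13 and 27 reads in River 1, a ratio of 1.99999, and those at 34619001 to 34619100 and 62482501 to 62482600 had ratios of 1.9998 and 1.9996. A further 573 eligible windows without overlap between the pools had ratios of 1.9 to 2. In 140 of the selected windows (8.87%) the lowest Lake 2 pool and the highest River 1 pool were apart by less than the CPM of 1 read of the shallowest pool.

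Separation of the pools was much more common than a 2-fold difference. Of the eligible windows 11027 (16.7%) had all Lake 2 pools above all River 1 pools, and 5662 (8.55%) had the opposite order. A mean at least 2-fold higher in Lake 2 was found in 1784 windows, of which 205 had overlapping pools. The mirrored rule, with River 1 above Lake 2, was met by 242 windows (0.366%) on 204 contigs.

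The windows were weakly covered, with a median of 15.5 reads per pool and none above a mean of 60.7. Of the eligible windows with a mean of 10 to 15 reads 4.01% were selected (721 of 17990), and of those with 15 to 25 reads 3.52% (622 of 17676). The share was 1.58% at 25 to 50 reads (233 of 14724) and 0.0287% at 50 to 100 reads (3 of 10437), and no window with 100 to 150 reads was selected (0 of 5368). The mirrored rule gave 175, 47, 15, 5 and 0 windows in these 5 classes. The excess of windows higher in Lake 2 was thus found below 50 reads. In the same classes the median log2 ratio of all eligible windows, Lake 2 over River 1, was 0.18, 0.22, 0.09, −0.06 and −0.07. In weakly covered windows this shift lay mainly in 1 pool of each site. In finer classes of 10 to 22.8 reads, the median level relative to the mean of the 6 pools was 1.14 to 1.17 in pool 4. It was 0.76 to 0.79 in pool 8, and 0.96 to 1.03 in Lake 2 pools 5 and 6 and River 1 pools 7 and 9.

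When the CPM of each pool was centred within 20 classes of mean count, a scaling added after the counts had been seen, 675 windows met the rule. All of them were among the 1579 windows. The mirrored rule was then met by 663 windows. The excess of windows higher in Lake 2 over windows higher in River 1 therefore depended on the scaling, whereas a set of windows past the limits was found in each direction under both. With TMM factors 1486 windows were selected and with size factors 1192, against 270 and 349 of the mirrored rule.

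**Figure D2:**
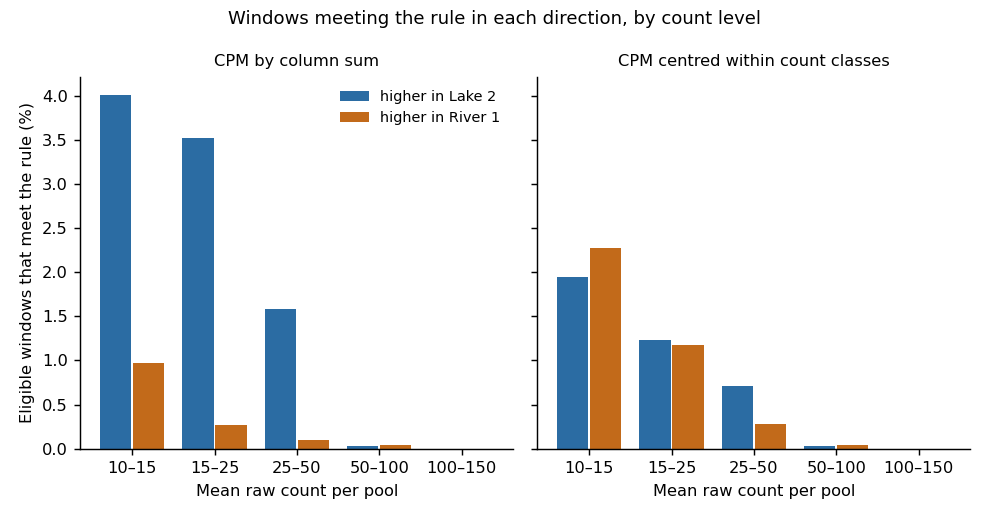
Share of eligible windows (%) that met the rule with Lake 2 higher (blue, left bar) or River 1 higher (orange, right bar), by mean raw count per pool. Left, CPM by column sum, where the shares higher in Lake 2 were 4.01%, 3.52% and 1.58% in the 3 lowest classes against 0.973%, 0.266% and 0.102%; right, CPM centred within count classes, where they were 1.95%, 1.23% and 0.713% against 2.27%, 1.18% and 0.285%.

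The edgeR quasi-likelihood test compared the sites over the 151608 windows whose counts summed to at least 10. It called 171 windows higher in Lake 2 at an unadjusted p-value under 1e-05, which is 0.113% of those tested. Of the selected windows 139 (8.80%) were among them. At a Benjamini-Hochberg adjusted p-value under 0.05 the same test called 1690 windows higher in Lake 2, or 1.11%, among them 810 of the selected windows (51.3%). The rule used the same contrast, so these counts say only how its limits relate to those of the test. The DESeq2 Wald test called 1 window higher in Lake 2 at 1e-05, and it was a selected window.

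To see how a pool that took no part in the choice behaved, each pool was left out, the rule was applied to the other 5 (summed count at least 50), and the left-out pool was read in the chosen windows. Of 995 windows chosen without pool 4, 96.6% had pool 4 above every River 1 pool, against 39.1% of all eligible windows. For pool 5 this was 75.2% of 2718 windows against 29.2%, and for pool 6 86.4% of 1820 windows against 31.8%. The River 1 pools in this comparison had been chosen to be low, which favours a left-out Lake 2 pool lying above them. Of the River 1 pools, pool 7 was below every Lake 2 pool in 68.9% of 4208 windows against 31.4% of the eligible ones. Pool 8 was so in 93.8% of 1228 windows against 48.7%, and pool 9 in 79.1% of 2506 windows against 36.5%. Here the Lake 2 pools had been chosen to be high. The shares of all eligible windows carry no such choice and are therefore not the values that pools without a site difference would give.

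The size of the difference was smaller in 4 of the 6 left-out pools than in the pools used for the choice. The median ratio, Lake 2 over River 1, with the left-out pool on its own side, was 2.30 for pool 4, 1.64 for pool 5 and 1.95 for pool 6. For River 1 it was 1.42 for pool 7, 2.36 for pool 8 and 1.70 for pool 9. In the pools that made the choice it was 2.19 to 2.31. The opposite site entered each ratio with the pools used for the choice, so a ratio above 1 was favoured by construction, also for a pool without a site difference. Pools 5 and 7 were the least separated, and on the scale from the River 1 level to the Lake 2 level in the other pools their median position was 48.9% and 49.4% of the way. The same comparison with centred CPM, whose centring used all 6 pools, gave 66.5% to 91.7% of windows on the side of the site, against 24.7% to 35.8% of all eligible windows, and median ratios of 1.37 to 2.06. With it all 6 left-out pools had a smaller ratio than the pools used for the choice, pool 4 with 2.01 against 2.17 and pool 8 with 1.80 against 2.21. A single left-out pool has no replicate, so no test is given.

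**Figure D3:**
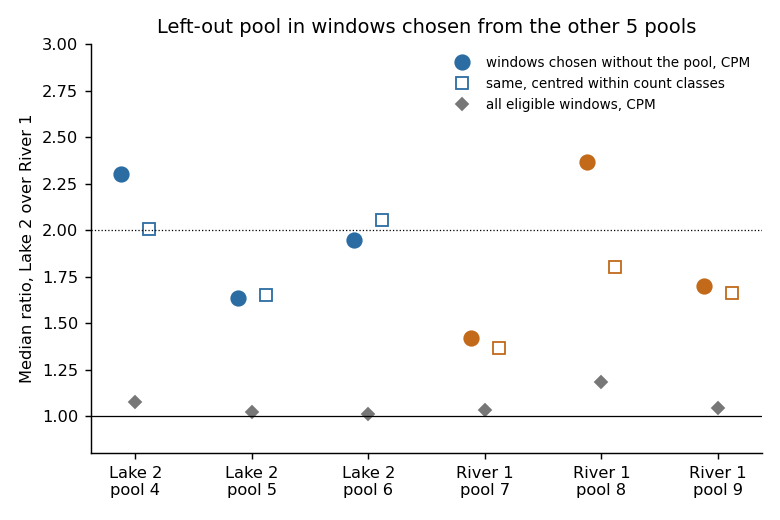
Median ratio of CPM, Lake 2 over River 1, in which the site of the left-out pool is represented by that pool alone, for windows chosen from the other 5 pools. Filled circles use CPM by column sum (1.42 to 2.36) and open squares CPM centred within count classes (1.37 to 2.06), blue for Lake 2 and orange for River 1; grey diamonds show all eligible windows (1.01 to 1.19), which were not chosen on the opposite site and so are not a value of no difference, and the dotted line marks 2-fold.

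The difference extended beyond the selected windows. At 100 bp from a selected window, 30.0% of the 1976 eligible windows were selected too, and the other 1384 had a median log2 ratio of 0.72, with 98.8% higher in Lake 2. At 200, 300, 500 and 1000 bp the windows outside the set had median log2 ratios of 0.54, 0.44, 0.40 and 0.31 (n = 1230, 870, 338 and 51). The value for all 64616 eligible windows outside the set was 0.07, with 56.6% higher in Lake 2. The medians thus fell with distance, though not at every step (0.39 at 600 bp and 0.43 at 700 bp), and stayed above that value. At 1000 bp the lower quartile was −0.04. There 15.7% of the windows had all Lake 2 pools above all River 1 pools, against 14.6% of all eligible windows outside the set. The value of 0.07 covers all count levels, and eligible windows with 10 to 15 and 15 to 25 reads had medians of 0.18 and 0.22. No neighbours were compared at matched counts. Windows next to each other can share reads and sonicated fragments, so near neighbours are not independent of the selected window.

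**Figure D4:**
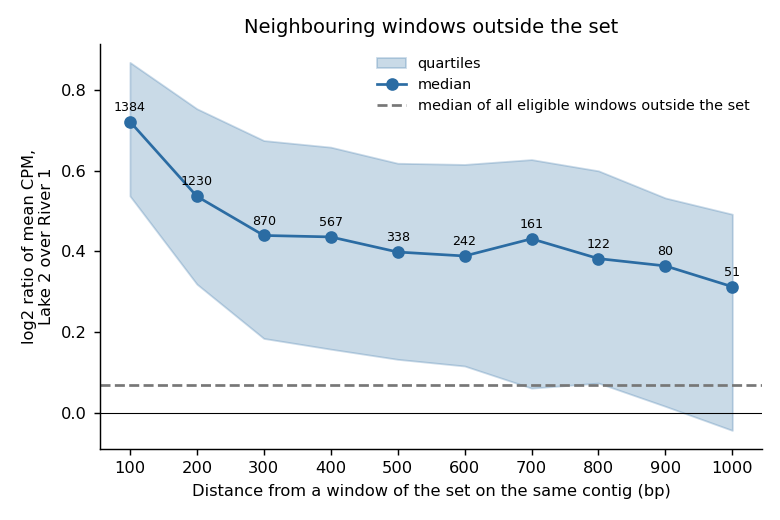
Log2 ratio of mean CPM (Lake 2 over River 1) of eligible windows outside the set, by distance in bp from a selected window on the same contig. The line joins medians, which were 0.72 at 100 bp and 0.31 at 1000 bp, the band spans the quartiles, numbers give the windows behind each point, and the dashed line is the median of all eligible windows outside the set (0.07).

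Whole contigs were also compared. Of the 1190 contigs with a selected window, 1073 held another eligible window. Summed over those other windows, the log2 ratio had a median of 0.54 (quartiles 0.37 and 0.71) and was positive on 1029 contigs (95.9%). On 52.7% of them the 3 Lake 2 pools were all above the 3 River 1 pools. The 20343 contigs without a selected window had a median of 0.01, 50.7% of them were higher in Lake 2, and the pools did not overlap with Lake 2 higher on 12.8%. Contigs were divided by the rule on these same pools, so higher values on contigs with a selected window are favoured by the choice. Their other windows can also share reads and sonicated fragments with the selected ones. The comparison is therefore a description and no independent support. The contigs with selected windows were of ordinary length for this reference, with a median of 700 bp covered by reads against 600 bp for all 21533 contigs with an eligible window.

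Within a contig the selected windows were few. A median of 33.3% of the eligible windows of such a contig was selected. All of them were selected on 117 contigs, of which 11 had 3 or more. Of the runs 877 (73.7%) were a single window, 253 had 2 windows, 49 had 3, 6 had 4 and 5 had 5. In 249 of the 313 runs with more than 1 window the windows adjoined, and the longest run spanned 900 bp. Selected windows were found at the end of the covered part of a contig in 12.0%, against 19.8% of eligible windows, and at the fourth window from an end or further in 29.1%, against 19.4%.

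The 8 runs with the most windows were on contigs 47312, 00508, 01987, 04177, 36246, 04790, 09576 and 06228. Of these contigs only 00508 has a gene symbol in the study's tables (DDOST, described below). The run on contig 36246, at 52665101 to 52665600, had the largest ratio of the 8. Its 5 windows held 178, 149 and 114 reads in Lake 2 and 37, 30 and 52 reads in River 1. That is 35.6, 35.9 and 29.7 CPM in Lake 2 and 9.40, 9.04 and 11.8 CPM in River 1, a 3.35-fold difference. The contig had 600 bp covered by reads and all 5 of its eligible windows were selected.

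The run on contig 47312, at 68151801 to 68152400, had the highest level, with 257, 185 and 150 reads in Lake 2 and 96, 71 and 80 in River 1 (51.5, 44.6 and 39.1 CPM against 24.4, 21.4 and 18.2 CPM, 2.11-fold). The runs on contigs 01987 (4096801 to 4097300) and 04177 (8058401 to 8059000) had 5 windows each. They held 225, 126 and 123 reads in Lake 2 against 76, 32 and 71 in River 1, and 194, 115 and 130 against 51, 42 and 68. In both of them pool 4 had the most reads, and the CPM of River 1 pool 8 was the lowest (9.64 and 12.7 CPM). Runs of 4 windows lay on contigs 04790 (9126601 to 9127000), 09576 (16955001 to 16955400) and 06228 (11562401 to 11562800), with ratios of 2.49, 2.30 and 2.33. On 7 of the 8 contigs the windows outside the run were also higher in Lake 2 by less than the run itself, with log2 ratios of 0.33 to 0.86 beside 1.08 to 1.32 in the runs, and on contig 36246 the only other window had 1.75 beside 1.74.

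The largest ratio of a single window, 6.04, was found at 29952601 to 29952700 on contig 18359. It held 43, 25 and 30 reads in Lake 2 and 6, 2 and 7 reads in River 1 (7.48 ± 1.33 and 1.24 ± 0.552 CPM). It belonged to a run of 2 windows, and the windows of this contig outside the run had a log2 ratio of 0.88. The window was named for its ratio and selected windows were left out of that value, so a lower value there was favoured by the choice. The next largest were a window of the run on contig 36246 (52665501 to 52665600, 4.82-fold) and a window on contig 08802 (15737801 to 15737900, 4.25-fold). Contig 08802 is listed with the gene AP1B1. Windows at 24206301 to 24206400 (contig 14382) and 46402201 to 46402300 (contig 31318) reached 4.12- and 4.08-fold. In these the Lake 2 pools held 34, 21 and 20 and 24, 18 and 18 reads, and the River 1 pools held 5, 5 and 6 and 8, 3 and 2 reads. Windows on contigs 10188 (17910301 to 17910400), 02799 (5605201 to 5605300) and 03809 (7412401 to 7412500) had ratios of 3.76, 3.76 and 3.70 from at most 10 reads in any River 1 pool, and in the last of them pool 8 had none.

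The best covered of the selected windows, at 54627601 to 54627700 on contig 37573, held 99, 79 and 73 reads in Lake 2 and 49, 23 and 41 in River 1. Its level was 19.3 ± 0.461 CPM in Lake 2 and 9.57 ± 2.76 CPM in River 1, a 2.02-fold difference. The window at 24206201 to 24206300 on contig 14382, beside the 4.12-fold window above, held 97, 72 and 67 reads in Lake 2 against 35, 31 and 31 in River 1. Here the pools of each site were close to each other (18.1 ± 1.17 and 8.43 ± 1.22 CPM). On contig 45266 the window at 65431301 to 65431400 held 78, 72 and 60 reads in Lake 2 and 30, 25 and 32 in River 1, with 16.2 ± 0.992 and 7.48 ± 0.179 CPM. Well covered windows were also found on contigs 26015 (39788101 to 39788200, 2.04-fold), 35519 (51569001 to 51569100, 2.24-fold) and 05700 (10674201 to 10674300, 2.23-fold). In the last of these pools differed within both sites, with 96, 40 and 59 reads in Lake 2 and 37, 12 and 30 in River 1.

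Gene names were taken from the tables in which the study matched its differentially methylated regions to genes of other species by sequence search. Only contigs with a listed region carry a name, so the named contigs are not a sample of all contigs: 100 contigs carry a symbol because of a region listed for these same pools and 73 only because of a region listed for other pools (Lake 1 against River 2). Selected windows were found on 81 of the 168 contigs with a symbol and an eligible window, and they were 114 of 926 eligible windows (12.3%), against 2.39% over all contigs. Among the contigs named through these pools the share was 15.0% (97 of 648), which the naming itself favours. Among those named only through the other pools it was 6.12% (17 of 278). Their eligible windows had a median log2 ratio of 0.45, and 81.7% were higher in Lake 2, against 0.08 and 57.7% over all eligible windows. With centred CPM the medians were 0.26 and −0.01. Below a mean of 50 reads the selected share was 6.39% on these contigs and 13.3% on all contigs with a symbol, against 3.13% over all contigs. The spelling of some symbols is uncertain, and a symbol gives the best match in another species.

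The 81 runs on contigs with a symbol had ratios of 2.00 to 3.53 with a median of 2.28, and 26 of them held 2 or more windows. The rest of the contig was higher in Lake 2 on 77 of the 81. The log2 ratio of those other windows had a median of 0.49 and ranged between −0.41 and 1.11. Here and for the genes below, the other windows are all those with a read, also those below the count limit. The rule selects windows and not genes. The share of selected windows in each gene list below stands beside 12.3% over all contigs with a symbol and 2.39% over all eligible windows, and most of the lists were close to the first of these.

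The longest run on a named contig was in DDOST, a subunit of the oligosaccharyltransferase that attaches sugar chains to new proteins in the endoplasmic reticulum. Its 5 windows (contig 00508, 1133101 to 1133600) held 248, 134 and 139 reads in Lake 2 and 92, 37 and 83 in River 1. The level was 39.4 ± 9.11 CPM in Lake 2 and 17.8 ± 6.18 CPM in River 1, a 2.21-fold difference. Pool 4 was well above the other Lake 2 pools and pool 8 below the other River 1 pools. Over the whole contig, with 15 eligible windows, the log2 ratio was 0.71, and over its other windows 0.36. Other genes of protein folding and breakdown with a run were tcpb, HSPA8 (a constitutive heat shock protein 70 chaperone), emc4 (endoplasmic reticulum membrane complex), TXNP5 and the proteasome subunits psmc5, PSMB4 and PSMA5. In PSMB4 the window held 27, 18 and 16 reads in Lake 2 against 6, 2 and 11 in River 1 (3.01-fold). In this list 14 of 124 eligible windows were selected (11.3%), on 8 of 18 contigs.

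Among genes of membrane traffic and small GTPases 16 of 96 eligible windows were selected (16.7%), on 9 of 15 contigs. PIGU, a subunit of the enzyme that attaches glycolipid anchors to proteins, had 3 windows (198901 to 199200) with 90, 91 and 95 reads in Lake 2 and 47, 16 and 43 in River 1. Here the Lake 2 pools were close in reads but less so in CPM (18.0, 21.9 and 24.8). The contig outside the run had a log2 ratio of 0.97. AP1B1, a subunit of the clathrin adaptor complex that sorts cargo at the Golgi, had the largest ratio of the 81 runs, 3.53. Its 2 windows (15737801 to 15738000) held 74, 35 and 63 reads in Lake 2 and 21, 6 and 18 in River 1 (13.2 ± 4.22 and 3.74 ± 1.79 CPM). Further runs of 2 windows were in copa (coat of vesicles that return to the endoplasmic reticulum, 2.37-fold), ARF6 (2.13-fold) and RAB11B (recycling endosomes, 2.33-fold).

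Of genes of cytosolic ribosomal proteins 13 of 52 eligible windows were selected (25%), the highest share of the lists, on 11 of 16 contigs. The median log2 ratio of all 52 windows was 0.59 and 90.4% of them were higher in Lake 2. On all contigs with a symbol 80.7% of eligible windows were higher in Lake 2, and over all contigs 57.7%. In rps6, a protein of the small subunit, 2 windows (619601 to 619800) held 126, 75 and 79 reads in Lake 2 and 40, 27 and 36 in River 1 (21.3 ± 3.63 and 8.83 ± 1.15 CPM, 2.41-fold). RPL9, of the large subunit, had 54, 43 and 52 reads in Lake 2 and 25, 14 and 19 in River 1 over 2 windows (1084001 to 1084200, 2.33-fold). Among the other members, RpL8, RPL35A, rpsa, RPS3, RPL7A on 2 contigs, RPL15 and RpLP1 had a single window each with ratios of 2.02 to 2.77. Ribosomal protein genes often have close copies, and reads of such copies could be shared between contigs.

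Among other factors of translation and mRNA 16 of 137 eligible windows were selected (11.7%), on 12 of 23 contigs. The 3 windows of ddx39a, an RNA helicase of mRNA export, spanned 13890501 to 13891100 and held 72, 59 and 73 reads in Lake 2 and 40, 26 and 19 in River 1 (2.14-fold). In fam46c, a poly(A) polymerase, 2 windows held 81, 46 and 47 reads in Lake 2 and 32, 6 and 35 in River 1. Pool 8 stood apart there, with 1.81 CPM beside 8.13 and 7.96 CPM in River 1 pools 7 and 9. MRPS12, a protein of the mitochondrial ribosome encoded in the nucleus, had 2 windows (2.32-fold). Single windows lay in eif4a1b, EIF4E2 (cap binding), UPF3B (nonsense-mediated decay), PUF60 (splicing), CNOT6 (deadenylation), XRN1 (an exonuclease of mRNA decay), bcas2, gnb2l1 and NOP56, with ratios of 2.01 to 2.47.

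In energy metabolism 20 of 133 eligible windows were selected (15.0%), on 13 of 21 contigs. SLC25A37, the mitochondrial iron importer mitoferrin, had 87, 40 and 55 reads in Lake 2 and 28, 19 and 30 in River 1 over 2 windows (6977601 to 6977800, 2.11-fold). NSDHL, an enzyme of sterol synthesis, had 73, 38 and 56 reads in Lake 2 and 28, 16 and 25 in River 1 over 2 windows. In both the Lake 2 pools differed more than the River 1 pools in CPM. Of enzymes of the citric acid cycle, IDH3B held 66, 40 and 42 reads in Lake 2 against 25, 11 and 28 in River 1, and the gene written sucIgl1 held 61, 39 and 33 against 24, 12 and 22. Pepck, of gluconeogenesis, held 64, 36 and 43 reads in Lake 2 and 24, 12 and 16 in River 1 (2.45-fold). For cyc1.L, cytochrome c1 of the respiratory chain, the Lake 2 pools were nearly equal (9.61, 9.64 and 10.2 CPM) and the River 1 pools were not (5.59, 1.81 and 6.59 CPM). Single windows or pairs in mdh1, GAPDH, pgk1, atp5a1, vha-13, PHB and mvk had ratios of 2.03 to 2.76.

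Among signalling and growth factor genes 12 of 94 eligible windows were selected (12.8%), on 8 of 16 contigs. SMAD3, which carries transforming growth factor beta signals to the nucleus, had 3 windows within 53358601 to 53359300. They held 76, 54 and 63 reads in Lake 2 and 35, 20 and 20 in River 1 (14.9 ± 1.73 and 6.49 ± 2.21 CPM, 2.29-fold), while the other windows of the contig had a log2 ratio of −0.06. The other windows of the TXNP5 contig had a log2 ratio of −0.41. Its 2 eligible windows were both in the run, so this value rests on windows below the count limit. Pka-C1, the catalytic subunit of protein kinase A under its Drosophila name, had 3 windows (13873001 to 13873300). They held 69, 52 and 60 reads in Lake 2 and 20, 14 and 39 in River 1 (2.31-fold). The rest of the contig had 0.19 on the log2 scale, again from windows below the count limit. Single windows lay in PPP1CA on 2 contigs (protein phosphatase 1), HIPK2, COL4A3BP and bnip3lb, with ratios of 2.00 to 2.69.

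Of cytoskeleton and junction genes 8 of 66 eligible windows were selected (12.1%), on 7 of 12 contigs. In cgn, the tight junction protein cingulin, 2 windows (30004601 to 30004800) held 62, 39 and 43 reads in Lake 2 and 21, 9 and 25 in River 1 (2.40-fold). The window in cttn, the actin-binding protein cortactin, had the largest ratio of this list (3.26), with 24, 17 and 18 reads in Lake 2 and 6, 5 and 5 in River 1. Of genes of chromatin and transcription 10 of 60 eligible windows were selected (16.7%), on 8 of 10 contigs, and 2 windows of 1 contig met the mirrored rule. ZMAT2, a zinc finger protein of the spliceosome, held 77, 41 and 32 reads in Lake 2 and 30, 8 and 19 in River 1 over 2 windows (25401 to 25600). Its Lake 2 pool 6 (8.34 CPM) and River 1 pool 7 (7.62 CPM) nearly met. In bcl11a, a zinc finger transcription factor, the run held 54, 40 and 39 reads in Lake 2 and 32, 11 and 15 in River 1, and the rest of the contig had a log2 ratio of 1.11. Single windows lay in the histone methyltransferase genes SETD1A and kmt2d, in the acetyltransferase KAT8, and in ZMYND11, TAL2 and yeats4.

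The mitochondrial genome was the exception among the lists. None of 48 eligible windows on its 9 contigs was selected, 7 met the mirrored rule, and the median log2 ratio was −0.74. No library of DNA without immunoprecipitation was among the pools. Fewer copies of the mitochondrial genome and less methylation of it therefore cannot be told apart here. The medians of the other 8 lists were between 0.51 and 0.60, against 0.08 over all eligible windows. With centred CPM they were between 0.35 and 0.42, against −0.90 in the mitochondrial list and −0.01 over all eligible windows. These lists were made with earlier results of these data known and hold only named contigs, so their shares describe the named contigs and no test was made of them.

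**Figure D5:**
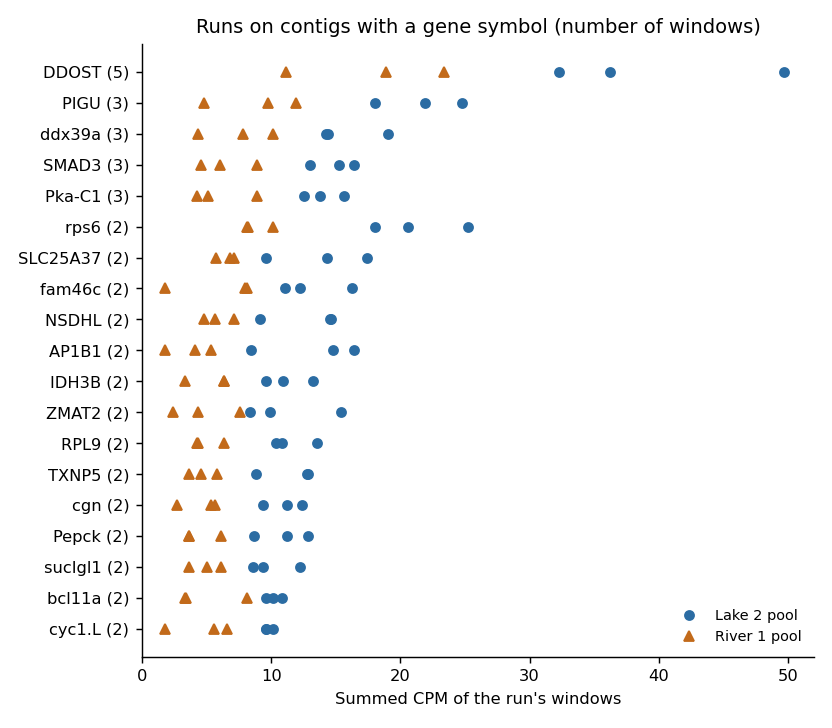
Summed CPM of the selected windows in 19 of the 20 runs on contigs with a gene symbol that hold the most windows (number of windows in brackets), with 1 point per pool. Blue circles are Lake 2 pools and orange triangles River 1 pools; no triangle lies to the right of a circle in a row, as the rule requires, and the gap is narrowest for ZMAT2 (8.34 CPM in the lowest Lake 2 pool against 7.62 CPM in the highest River 1 pool).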

How the data were processed

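MeDIP-seq of 6 foot tissue pools was used, 3 of Lake 2 and 3 of River 1. The authors' notes and methods name Trimmomatic and FastQC for the reads, Bowtie2 for alignment to the joined transcriptome, SAMtools for sorting and MEDIPS for counting over 100 bp windows. Versions are not given in the sources used here. The authors deposited unnormalized read counts for every window and pool, and the highest is 300. The 6 deposited columns of RPKM values per pool were not used. The deposited columns of the authors' edgeR comparison (fold changes, p-values and adjusted p-values) were not used either. Titles of the River 1 samples give other numbers than the table columns, so the River 1 columns were assigned to the site and not to a sample.

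Counts were scaled to CPM by column sum. Contig borders were placed at 8 or more empty windows, which left each of the 3852 contigs that the study names in a segment of its own. The site comparison used edgeR 4.0.16 in R 4.3.3 (TMM factors, quasi-likelihood test, no covariates, windows whose counts summed to at least 10), with DESeq2 1.42.0 as an alternative. The code of the rule and of the test was checked on simulated counts with planted differences, and that of the borders on a small constructed table. The simulated pools differed in depth but had no shift that depends on count level. The check therefore does not show how the rule behaves under the shift of pools 4 and 8 described above. In the centred scaling, eligible windows were divided into 20 classes of mean count, and the CPM of each pool was divided by its median share within the class. Alternatives were other scalings, count and fold limits, join distances, tests and the omission of each pool. Values after ± are SDs among the 3 pools of a site. The limit given for a window without a read covers counting error only. The reads carry no molecular identifiers.

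Windows and genes were named by rule: the 8 runs with the most windows, the 8 windows with the highest ratio and the 6 with the highest count (at most 1 per run), the 3 windows on each side of the fold limit, and runs on contigs with a gene symbol, with pool values for the 20 with the most windows. A few of these genes are not reported here. A few single windows of further genes were given values after these had been seen. The windows, gene lists and tests were chosen with earlier results of these data known.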

Additional observations from a re-analysis of the deposited data

How the results depend on the processing

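The set of 1579 windows in 1190 runs changed most with the limits of the rule and with the pools. With a minimum of 30 counts it held 2967 windows in 2166 runs and with a minimum of 120 it held 437 in 350, while a fold limit of 1.5 gave 6461 in 3778 and one of 3 gave 69 in 64. Centring within count classes, added after the data were seen, gave 675 windows in 559 runs, with 663 windows of the mirrored rule in place of 242. Leaving out 1 pool gave 995 to 4208 windows in 803 to 2703 runs, and 177 to 532 windows of the mirrored rule. Single omissions that moved the number of windows by over 1.5 times were those of pool 4 (995), pool 5 (2718), pool 7 (4208) and pool 9 (2506), and those of pools 4, 5 and 7 moved the mirrored rule (512, 532 and 498). TMM factors, size factors, overlapping pools, no upper count limit and join distances of 200 to 2000 bp kept the numbers within 1.5 times.

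Of the selected windows, edgeR called 139 at 1e-05. The DESeq2 Wald test called 1, the edgeR exact test 226, edgeR with library sizes alone 68, with a minimum count of 60 it was 90, and with a minimum of 1 it was 335. For the 171 windows called higher in Lake 2 among all those tested, the DESeq2 test gave 1, the exact test 327 and a minimum count of 1 gave 536. At 1e-05 edgeR called 52 windows lower in Lake 2, so 76.7% of its calls were higher in Lake 2, against 65.2% with size factors (148 higher and 79 lower) and 10% with DESeq2 (1 and 9). Leaving out 1 pool gave 42 to 236 calls among the selected windows and 49 to 399 among all windows. Omission of pool 4 gave 42 and 49, of pool 6 49 and 50, of pool 7 236 and 399, of pool 8 71 and 87, and of pool 9 62 and 68. The cause of these changes was not tested.

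The median ratio of each left-out pool moved by less than 1.5 times under centring. Of 423 alternative log2 ratios of the 47 named windows and runs, 6 moved by over 1 SD. Their direction was fixed by the choice of windows without overlap between the pools. No paired analysis was possible because the labels give the pools of both sites no shared numbers. Depth limits the set from below: at a mean of 10 to 15 reads, a few reads in 1 pool decide whether a window meets the limits.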

Other observations

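On 3 contigs a window higher in Lake 2 and a window higher in River 1 under the mirrored rule were found together. On contig 01984 the window at 4090901 to 4091000 held 52, 28 and 37 reads in Lake 2 and 24, 8 and 16 in River 1 (ratio 2.21). The window at 4091601 to 4091700 of the same contig held 6, 7 and 9 reads in Lake 2 and 13, 12 and 19 in River 1 (ratio 0.466). On contig 05297 the window at 9993701 to 9993800 held 30, 18 and 17 reads in Lake 2 and 11, 7 and 10 in River 1 (ratio 2.06), and that at 9992801 to 9992900 held 12, 6 and 6 against 19, 10 and 24 (ratio 0.407). The third pair, at 59119401 to 59119500 (ratio 2.05) and 59119201 to 59119300 (ratio 0.464), lay only 1 window apart. These are 3 of 1190 contigs with a selected window and of 204 contigs with a window of the mirrored rule.

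Trnae-cuc and trnan-guu, names of transfer RNA genes, belong to no list. Their single windows held 68, 39 and 48 reads in Lake 2 against 24, 16 and 28 in River 1, and 66, 35 and 47 against 22, 15 and 22 (2.05- and 2.24-fold). SLC34A1, a phosphate transporter, had 42, 26 and 28 reads in Lake 2 and 15, 10 and 16 in River 1 in its window (log2 ratio 1.07).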
